A study of Danio rerio with 6 samples.

Results

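Animals break down foreign chemicals in steps. Cytochromes P450 of the families CYP1 to CYP4, heme enzymes of the endoplasmic reticulum, oxidise them, and many of these enzymes also act on fatty acids, steroids and other compounds of the body. UDP-glucuronosyltransferases (UGTs) and sulfotransferases (SULTs) then attach a sugar acid or a sulfate group, which makes the products easier to excrete and also inactivates hormones. The aryl hydrocarbon receptor (AHR) is a ligand-activated transcription factor best known for switching on CYP1 genes in the presence of planar aromatic pollutants, and the AHR repressor counters it. In a testis, P450s and conjugating enzymes also set how much active steroid and how much of a foreign compound the germ cells meet.

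The genes described here are those whose zebrafish symbol places them in CYP1 to CYP4, UGT1, UGT2, UGT5 or SULT. Added to them were the receptor genes ahr1a, ahr1b and ahr2 and an AHR repressor gene, ahrra, here the AHR genes. Symbols matched 106 of the 32520 genes of the count table, and 100 of these had at least 10 counts in at least 3 libraries. These 100 genes comprise 4 AHR genes, 5 CYP1, 38 CYP2, 5 CYP3, 4 CYP4, 6 UGT1, 7 UGT2, 12 UGT5 and 19 SULT genes. Of the 100, 75 reached the minimum in all 6 libraries. The minimum was reached in exactly 3 libraries by 6 genes, and 2 of these, ugt2b5 and ugt5g2, reached it in the exposed libraries only. No gene reached it in the control libraries only. The 6 symbols left out are cyp2k31, cyp2x10.1, ugt1b3, ugt5a2, ugt5b5 and ugt5e1. Of those, cyp2x10.1 had 208 counts in control 3-1, 86 in exposed 3-1 and 0 in the other libraries, while ugt5e1 had 0 in every library.

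The study sequenced poly(A)-enriched RNA from testicles of adult wild-type zebrafish (Danio rerio), 3 of them controls and 3 exposed for 96 h to polystyrene nanoplastics, very small plastic particles, put into the tank water every 24 h. Control fish lived in water without particles, and the sources used here give no age in days, dose or particle size. Each library is called by its replicate number and then its animal number: control 1-2, control 2-2 and control 3-1, then exposed 2-2, exposed 3-1 and exposed 3-3. Each came from 1 animal, and what the replicate number shared by exposed 3-1 and exposed 3-3 stands for is not stated.

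Totals ran from 76205591 to 108273937 counts per library. Levels below are counts per 1000000 after TMM scaling (CPM), and a set of 6 values is always in the order of libraries just given. CPM is not divided by gene length, so it compares 1 gene between libraries and not genes with each other. Log2 fold changes come from edgeR's quasi-likelihood test and are exposed over control ± SE, with n = 3 in each group and p-values adjusted by Benjamini-Hochberg over 26108 genes. On this scale 3 counts equal between 0.0262 and 0.0422 CPM, depending on the library. Defining transcripts of the testis were present: 8 of 8 germ cell markers, 7 Sertoli cell markers and 9 Leydig cell markers had counts. The summed germ cell markers stood at 5836, 6416 and 5938 CPM in controls and at 3338, 2724 and 4176 CPM in exposed libraries, with 0 of 8 above a log2 fold change of 0. The Sertoli cell markers summed to 3048, 2723 and 2530 CPM and to 1763, 2358 and 1941 CPM, with 2 of 7 above 0. Those 2 are identifiers that share the symbol SOX9 (2.85 and 0.03), so separate markers are fewer. The Leydig cell markers summed to 3318, 4542 and 2233 CPM and to 2612, 1713 and 1529 CPM, with 0 of 9 above 0. Among them the symbols CYP11A1 and NR5A1 each stand for 2 identifiers. The part of these shifts in the levels of the 100 genes was not tested. In bulk tissue, fewer cells of a type, less RNA per cell and a larger share of RNA from other tissues cannot be told apart.

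Over the whole set, 0 of the 100 genes passed edgeR's test at an adjusted p of 0.05 in either direction, as did 0.0% of all tested genes higher and 0.0% lower (smallest adjusted p among the 100 = 0.156, for ugt2b5). At an unadjusted edgeR p under 0.05, 13 genes were higher in exposed testes, against 9.68% of all tested genes, and 2 were lower (sult2st2 and ugt2a7), against 6.79%. DESeq2, a second count test, called 11 of the 98 genes it gave an adjusted p as higher (11.2%), against 5.35% of all genes it tested, and 0 as lower, against 1.34%. The 11 genes were ahr2, CYP1B1, cyp2aa7, cyp2k17, ugt2a6, ugt2b5, ugt5g2, sult1st7, sult1st9, sult2st3 and sult5a1. Of these, 7 had a mean below 1 CPM in controls, and 10 also had an unadjusted edgeR p under 0.05. The count minimum was reached by ugt2b5 and ugt5g2 in 0 controls and by cyp2k17, sult1st9 and ugt2a6 in 1. For these genes a difference was partly built into the selection. Limma voom called 0. Below, a DESeq2 call without an edgeR call is given as that and is not read as an established change.

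All 3 exposed values lay above all 3 control values for 18 genes, against 12.8% of all tested genes, and below them for 3 (cyp2j20, cyp2k20 and sult2st2), against 10.9%. Of the 18, ugt2b5 and ugt5g2 reached the count minimum in exposed libraries only. In ahr1a, cyp2k17, sult1st9 and ugt5a1 it was reached in 3 exposed libraries and 1 control. A difference was thus partly built into the selection of these genes, so the share of 18 is not read as a result. The fitted fold change was above 0 for 71 genes and below 0 for 29, where 52.1% and 47.9% of all tested genes fell on those sides. The 71 include ugt2b5, ugt5g2, ahr1a, cyp2k17, sult1st9 and ugt5a1. The share of 71 and the medians below are thus not read as a result either. The median log2 fold change was 0.54, beside 0.04 for all tested genes. By class the median was 1.38 for the AHR genes, 0.62 for CYP1, 0.26 for CYP2, 0.34 for CYP3, 0.33 for CYP4, 0.08 for UGT1, 0.29 for UGT2, 0.39 for UGT5 and 0.82 for SULT. The AHR median rests on 4 genes, of which ahr1a and ahrra had means below 1 CPM over the 6 libraries. The plot by class shows the fold changes gene by gene.

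**Figure D1:**
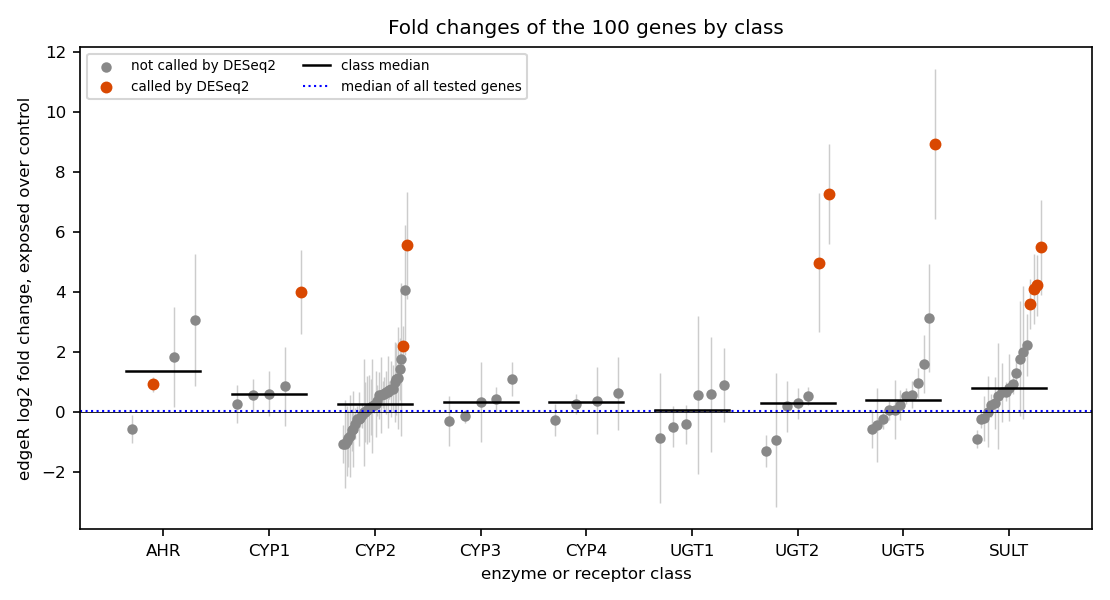
Log2 fold change of each of the 100 genes (exposed over control, edgeR, points) with its SE (grey lines), arranged by class along the horizontal axis; orange points are the 11 genes called by DESeq2. Most points of every class lie within a few units of 0. Black bars mark class medians between 0.08 for the 6 UGT1 genes and 1.38 for the 4 AHR genes. The topmost point, ugt5g2, has no control counts, so its plotted height depends on the fit.

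Control 3-1 stood apart from the other controls in these genes. It held the highest control value for 60 of the 100, against 35.8% of all tested genes. With 0.1 CPM added to each value, its level was at least 3 times the mean of the other controls for 35 of the 100, against 6.13% of all tested genes. The share was 19 of 38 in CYP2, 3 of 4 in CYP4, 2 of 5 in CYP1 and in CYP3, 5 of 19 in SULT, 4 of 25 in the UGTs and 0 of 4 in the AHR genes. In the same library, hepatocyte markers summed to 26482 CPM, beside 1933 and 1034 CPM in the other controls and 2061, 10843 and 3211 CPM in the exposed libraries. All 16 hepatocyte markers were highest of the controls there, 15 of them at least 3 times the mean of the others, and none was at 0. The part of these transcripts in the levels of the 100 genes was not tested.

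Leaving out control 3-1 changed the counts. As this library was singled out for its high levels of these same genes, a rise without it was built in. Without it the median log2 fold change of the 100 genes was 1.15, beside 0.07 for all tested genes. The groups then did not overlap, with exposed higher, for 43 genes, against 19.5% of all tested genes. An unadjusted edgeR p under 0.05 was reached by 25 genes on the higher side, against 9.23%, and DESeq2 called 19 higher, against 6.55%, while edgeR's adjusted p called 0. The median of the 100 genes was instead 0.30 without control 1-2 and 0.28 without control 2-2. The map of levels by library shows the column of control 3-1 beside the others.

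**Figure D2:**
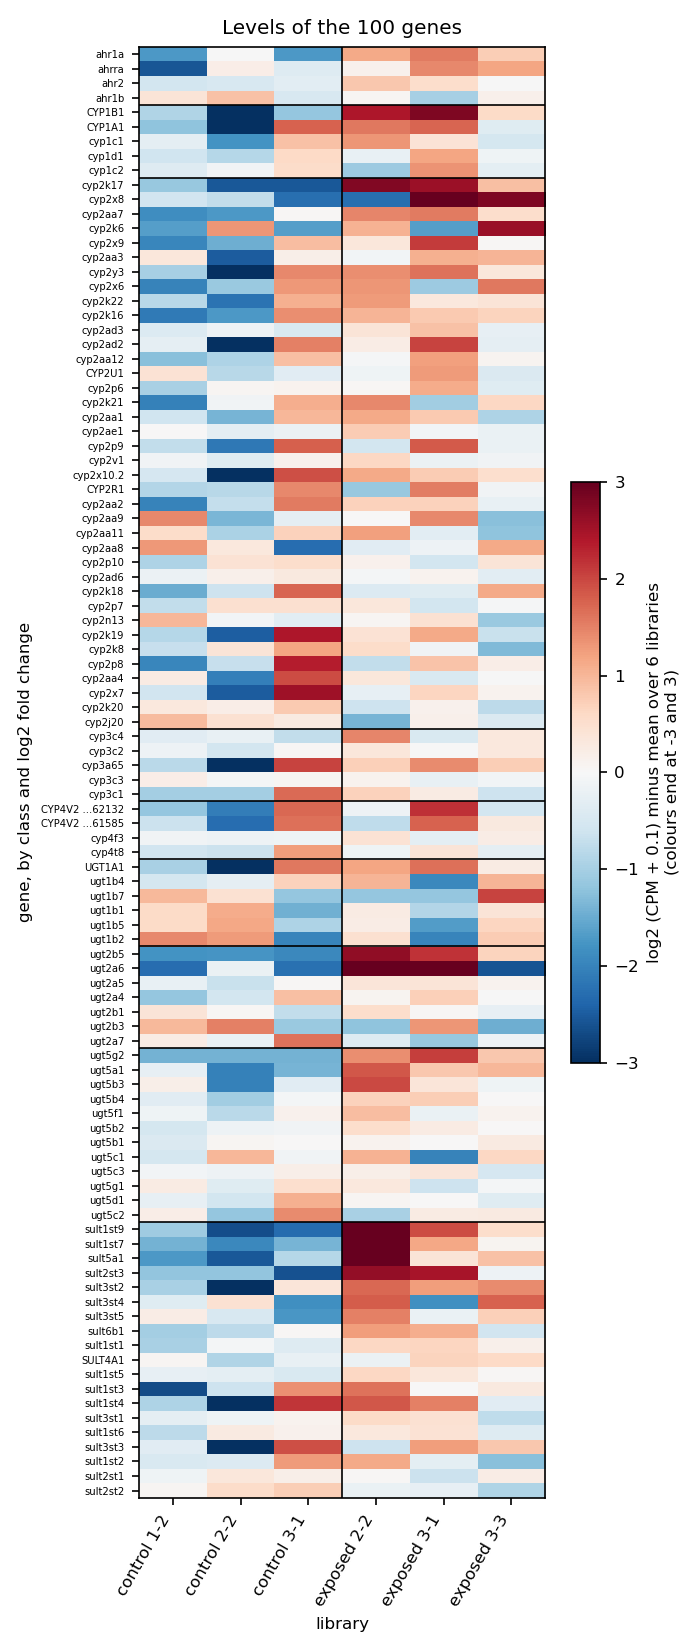
Level of each of the 100 genes (vertical axis, grouped by class and ordered by fold change) in each of the 6 libraries (horizontal axis), as log2 of CPM plus 0.1 minus the gene's mean over the libraries; red is above and blue below that mean. Many CYP2, CYP3 and CYP4 genes are red in control 3-1 alone among the controls, and the genes at the top of the SULT block are darkest in exposed 2-2.

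The gene ahr2 encodes the AHR through which dioxins act in zebrafish embryos. Its level was 62.2, 65.9 and 73.8 CPM in controls and 161, 132 and 91.0 CPM in exposed libraries. The groups did not overlap, exposed 2-2 was highest, and exposed 3-3 lay nearest the controls. The log2 fold change was 0.93 ± 0.25 (edgeR adjusted p = 0.172), and it stayed between 0.73 and 1.12 with any library left out. DESeq2 called it (adjusted p = 0.0381), and in 2 of the 6 runs with a library left out.

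The other AHR genes did not reach either threshold. ahr1b, which neighbours ahr2, encodes another AHR of zebrafish and stood at 11.3, 16, 6.20, 8.94, 4.32 and 9.57 CPM, with overlapping groups and a log2 fold change of -0.55 ± 0.48. ahr1a had counts in 1 control, with 0, 0.229 and 0 CPM in controls and 0.626, 0.872 and 0.454 CPM in exposed libraries. Its groups did not overlap, but the fit placed it at 3.07 ± 2.20 (edgeR adjusted p = 0.551), so the SE was nearly as large as the change. The repressor gene ahrra stood at 0, 0.574 and 0.352 CPM in controls and 0.548, 1.51 and 1.24 CPM in exposed libraries, a log2 fold change of 1.83 ± 1.67 with overlapping groups. Counts for ahr2 made up 90.3% of the summed CPM of the 4 genes, and that sum was 73.5, 82.7, 80.3, 171, 139 and 102 CPM.

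All 5 CYP1 genes lay above 0, and the groups separated in 1 of them. Of all tested genes, 52.1% lay above 0 and 12.8% separated with exposed higher. CYP1B1, whose mammalian counterpart oxidises oestradiol and polycyclic hydrocarbons, stood at 0.626, 0 and 0.506 CPM in controls and 7.08, 9.24 and 1.92 CPM in exposed libraries. Every exposed library was above every control. The log2 fold change of 4.0 ± 1.41 (adjusted p = 0.235 in edgeR and 0.0141 in DESeq2) had a range of 3.40 to 4.58 when libraries were left out. The DESeq2 call was lost without exposed 2-2 (adjusted p = 0.155) and without exposed 3-1 (adjusted p = 0.228).

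The reference table's CYP1A1 is the zebrafish gene cyp1a, the classic target of AHR and an oxidiser of polycyclic aromatic compounds. It stood at 9.75, 1.86 and 77.2 CPM in controls and 68.1, 76.1 and 17.6 CPM in exposed libraries. The highest value of all was in control 3-1, and the exposed values lay inside the range of the controls. It had a log2 fold change of 0.87 ± 1.33 (edgeR adjusted p = 0.817). Without control 3-1 it was 3.19, and DESeq2 then called it (adjusted p = 0.00205, beside 0.822 with all libraries). This call rests on the absence of 1 control library.

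The neighbouring pair cyp1c1 and cyp1c2, CYP1 genes that mammals lack, also had overlapping groups. For cyp1c1 the levels were 49.0, 17.4, 112, 152, 80.2 and 42.3 CPM (log2 fold change 0.62 ± 0.75), and for cyp1c2 they were 42.3, 51.7, 81.5, 26.0, 141 and 45.5 CPM (0.28 ± 0.62). In cyp1c2 the direction turned with single libraries, from -0.72 without exposed 3-1 to 0.67 without exposed 2-2. For cyp1d1, a zebrafish CYP1 gene not known as a target of AHR, the levels were 8.0, 6.67, 18.4, 10.3, 27.6 and 11.1 CPM, and its fold change of 0.57 ± 0.54 went to -0.058 without exposed 3-1.

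**Figure D3:**
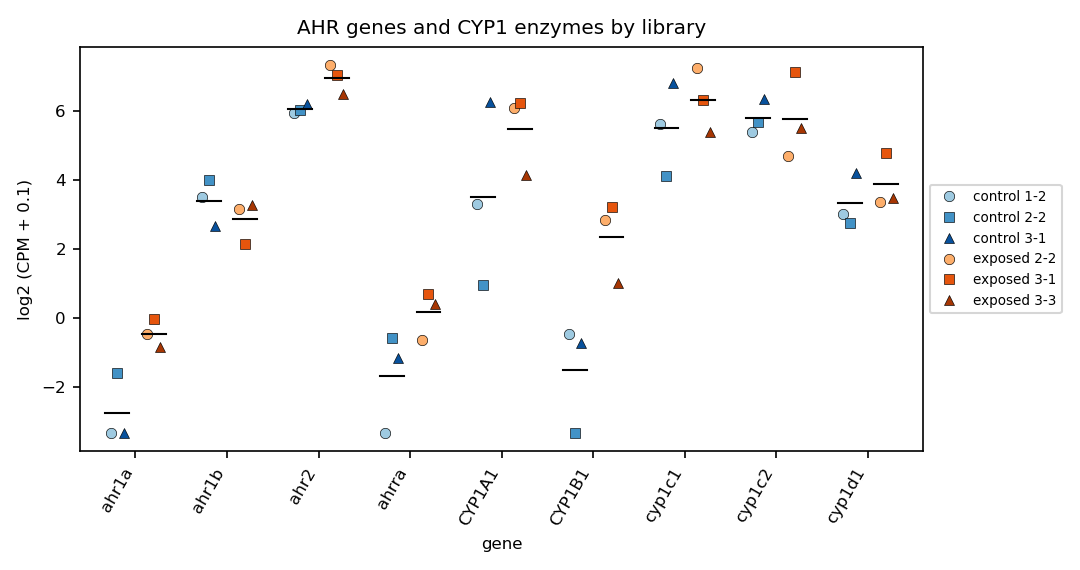
Levels of the 4 AHR genes and the 5 CYP1 genes (horizontal axis) as log2 of CPM plus 0.1, with 1 point per library, blue for controls and orange to brown for exposed, and a bar at the mean of each group. The groups are apart in ahr1a, ahr2 and CYP1B1, and in CYP1A1 the control 3-1 triangle at 77.2 CPM is level with the upper exposed points.

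The 38 CYP2 genes, a large and varied family in fish, divided into 24 above 0 and 14 below. The groups did not overlap for 2 on the higher side (5.26%), cyp2aa7 and cyp2k17, and for 2 on the lower side (5.26%). Over all tested genes these shares were 12.8% and 10.9%. The difference from these shares was not tested, and counts this small are not read as a result. cyp2aa7 belongs to a subfamily described in fish, and stood at 0.996, 1.11 and 3.97 CPM in controls and at 11, 11.6 and 5.70 CPM in exposed libraries. The fit gave 2.22 ± 0.67 (adjusted p = 0.188 in edgeR and 0.0214 in DESeq2). DESeq2 called it in 2 of the 6 runs with a library left out, those without control 3-1 and without exposed 3-3.

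cyp2k17 was nearly silent in controls, at 0.168, 0 and 0 CPM, and stood at 3.90, 3.39 and 0.995 CPM in exposed libraries. The fit gave 5.56 ± 1.77 (edgeR adjusted p = 0.200; DESeq2 adjusted p = 0.00529). Its DESeq2 call was lost without exposed 2-2 (adjusted p = 0.152) and without exposed 3-1 (adjusted p = 0.125). It lies in a run of 8 neighbouring cyp2k genes in which none of the others was higher in every exposed library. The lowest of that run, cyp2k20, had a log2 fold change of -1.06 and was lower in every exposed library, at 0.447, 0.408, 0.661, 0.186, 0.383 and 0.157 CPM.

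cyp2ad3, a neighbour of the cyp2p and cyp2j genes, had levels of 31.4, 37.8 and 30.8 CPM in controls and 54.5, 77.1 and 35.6 CPM in exposed libraries. Exposed 3-3 fell within the control range, and the log2 fold change was 0.74 ± 0.30 (edgeR adjusted p = 0.275). cyp2j20, which was named after its values were seen, shares its family with the human arachidonic acid epoxygenase CYP2J2. It was lower in every exposed library, at 4.54, 3.21 and 2.79 CPM against 0.812, 2.57 and 1.67 CPM (log2 fold change -1.06 ± 0.64, edgeR adjusted p = 0.464).

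The 3 CYP2 genes with the highest mean CPM differed by less than their spread. cyp2p10 stood at 70.4, 182, 192, 147, 91.5 and 176 CPM (log2 fold change -0.10 ± 0.41). cyp2p6 stood at 27.0, 55.7, 57.7, 54.9, 116 and 41.4 CPM (0.60 ± 0.45), with the highest value in exposed 3-1. cyp2v1 stood at 49.7, 41.4, 58.3, 81.8, 47 and 49.6 CPM (0.26 ± 0.28), with the highest value in exposed 2-2. Summed over the class, CYP2 was at 289, 394, 661, 533, 607 and 437 CPM, and control 3-1 had the highest sum.

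The 5 CYP3 genes showed 0 separated groups, where 12.8% of all tested genes separated on the higher side and 10.9% on the lower. cyp3a65, a zebrafish counterpart of the human drug-oxidising CYP3A enzymes that is known from liver and intestine, ranged from 1.05 to 80.1 CPM among controls alone, at 11.1, 1.05 and 80.1 CPM. The exposed libraries stood at 31.8, 52.3 and 32.5 CPM, inside that range. On the log2 scale the difference was 0.34 ± 1.33 (edgeR adjusted p = 0.939). It was 2.66 without control 3-1, where DESeq2 called it (adjusted p = 0.0205), and -0.24 without control 2-2. The call rests on leaving out control 3-1, the library singled out for its high levels of these genes.

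The neighbouring cyp3c genes form a subfamily known from fish. cyp3c1 also peaked in control 3-1, at 34.6, 34.5, 225, 114, 83.0 and 45.6 CPM, and its log2 fold change of -0.28 ± 0.84 became 1.2 without that library. cyp3c2 stood at 4.8, 3.59, 5.44, 6.71, 5.28 and 6.67 CPM, a narrow overlap with a log2 fold change of 0.43 ± 0.41. cyp3c3 was nearly level across all 6, at 28.7, 24.2, 26.2, 26.8, 21.5 and 23.8 CPM (-0.13 ± 0.22). cyp3c4 stood at 3.76, 4.10, 2.84, 13.4, 3.47 and 6.06 CPM, with exposed 3-1 among the controls (1.1 ± 0.57, edgeR adjusted p = 0.379).

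CYP4 enzymes hydroxylate fatty acids at the chain end. The symbol CYP4V2 is carried by 2 gene identifiers, and both had their highest control value in control 3-1 and their highest exposed value in exposed 3-1. ENSDARG00000061585 stood at 7.43, 2.29, 36.4, 6.78, 39.5 and 14.1 CPM (log2 fold change 0.39 ± 1.1). ENSDARG00000062132 stood at 2.90, 1.48, 21.9, 5.93, 30.3 and 4.47 CPM (0.63 ± 1.21). cyp4t8 stood at 14.3, 13.7, 51.1, 19.7, 28.3 and 17.8 CPM, again highest in control 3-1 (-0.26 ± 0.53). cyp4f3, named for the human enzyme that inactivates leukotriene B4, was even across libraries at 9.64, 9.37, 9.55, 14.0, 8.43 and 12.2 CPM (0.28 ± 0.33).

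Among the 25 UGT genes, 17 lay above 0 (68.0%, against 52.1% of all tested genes). For 6 of them (24.0%, against 12.8%), every exposed value was above every control value. The UGT1 family supplied none of these 6. Of the 6, ugt2b5 and ugt5g2 reached the count minimum in exposed libraries only, and ugt5a1 in 3 exposed libraries and 1 control. A difference was thus partly built into their selection, so the shares of 17 and of 6 are not read as results. UGT1A1, named for the human enzyme that conjugates bilirubin, stood at 8.21, 1.15 and 48.6 CPM in controls and at 37.2, 51.5 and 19.2 CPM in exposed libraries. As in CYP1A1 and cyp3a65, control 2-2 was lowest and control 3-1 highest of the controls. Its log2 fold change of 0.90 ± 1.23 (edgeR adjusted p = 0.795) became 2.92 without control 3-1, where DESeq2 called it (adjusted p = 0.0056). That call rests on leaving out control 3-1, the library singled out for its high levels of these genes.

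In the UGT2 family, whose mammalian members conjugate steroids and bile acids, ugt2b5 was close to absent from controls. It had 1, 1 and 0 counts there and 239, 152 and 58 counts in exposed libraries, or 0.0112, 0.0127, 0, 2.34, 1.62 and 0.506 CPM. The ratio of summed counts per effective library size was 173, with a 95% counting interval of 47.5 to 1429 that leaves out the spread between animals. EdgeR gave an adjusted p of 0.156 and DESeq2 an adjusted p of 0.000184, and DESeq2 called it in 6 of the 6 runs with a library left out. Because it reached the count minimum in exposed libraries only, a difference was built into its selection.

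ugt2a6, named after its values were seen, was patchy. It stood at 0.0224, 0.421 and 0.0281 CPM in controls and 6.77, 8.20 and 0 CPM in exposed libraries, so that exposed 3-3 was at 0 where the other exposed libraries were highest. Its DESeq2 adjusted p was 0.0389, and the call held in 2 of the 6 runs with a library left out. ugt2a7 went the other way, at 11.7, 8.65 and 30.9 CPM against 7.62, 4.50 and 8.95 CPM. Its groups met at control 2-2 and exposed 3-3, and the log2 fold change of -1.28 ± 0.53 (edgeR adjusted p = 0.289) was -0.55 without control 3-1. ugt2a4 stood at 7.58, 11.6, 32.2, 18.2, 27.9 and 16.9 CPM (0.29 ± 0.53).

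UGT5 is a family of fish and amphibians with no human member. ugt5g2 had 0 counts in all 3 controls and 62, 97 and 42 counts in exposed libraries, or 0.607, 1.03 and 0.366 CPM. Against a floor of 3 counts per control library it was at least 17.6-fold higher in exposed testes (edgeR adjusted p = 0.193; DESeq2 adjusted p = 0.0075). It too reached the count minimum through the exposed libraries only. The DESeq2 call was lost without exposed 2-2 (adjusted p = 0.0700) and without exposed 3-1 (adjusted p = 0.177).

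The related ugt5g1 had counts in every library and did not separate, at 103, 67.1, 123, 109, 56.2 and 83.4 CPM (log2 fold change -0.24 ± 0.32). It made up 57.0% of the summed CPM of the UGT5 class (not corrected for length), whose sum was 158, 114 and 208 CPM in controls and 192, 131 and 147 CPM in exposed libraries. The other UGT5 genes with separated groups were ugt5a1, ugt5b4 and ugt5b2, named after their values were seen. ugt5b2 went from 12.6, 16.2 and 16.8 CPM to 26.4, 21.7 and 18.2 CPM (0.54 ± 0.27, edgeR adjusted p = 0.371). The 4 neighbouring ugt5b genes all lay above 0, from 0.25 for ugt5b1 to 1.61 for ugt5b3.

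Of the 19 sulfotransferases, 16 lay above 0 (84.2%, against 52.1% of all tested genes). All exposed values were above the controls for 7 (36.8%, against 12.8%). At an unadjusted edgeR p under 0.05, 6 were higher (31.6%, against 9.68%), and DESeq2 called 4 (21.1%, against 5.35%). Each of these counts includes sult1st9, which reached the count minimum in 3 exposed libraries and 1 control. For that gene a difference was partly built into the selection. The differences from the shares of all tested genes were not tested, and the shares of 16 and of 7 are not read as results. Summed over the class, sulfotransferase counts were at 99.7, 131 and 162 CPM in controls and at 557, 311 and 156 CPM in exposed libraries, so exposed 3-3 lay below control 3-1.

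sult2st3 belongs to the SULT2 family, which sulfates hydroxysteroids such as dehydroepiandrosterone. It stood at 11.7, 11.8 and 4.28 CPM in controls and at 167, 148 and 24.2 CPM in exposed libraries. Exposed 2-2 and exposed 3-1 were far above the rest, and exposed 3-3 lay between them and the controls. Its log2 fold change of 3.61 ± 0.82 (adjusted p = 0.166 in edgeR and 1.36e-06 in DESeq2) ranged from 3.21 to 4.08 with a library left out. DESeq2 called it in 6 of the 6 such runs (highest adjusted p = 0.00149), and edgeR called it in 1, without exposed 3-3.

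The other SULT2 genes did not share this pattern. sult2st2 was lower in every exposed library, at 24.8, 35 and 39.7 CPM against 20.8, 20.2 and 12.8 CPM (log2 fold change -0.89 ± 0.30, edgeR adjusted p = 0.216; DESeq2 adjusted p = 0.135). Its neighbour sult2st1, named after its values were seen, stood at 18.2, 25.3, 22.6, 20.7, 12.9 and 23.5 CPM (-0.21 ± 0.30).

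sult5a1, a sulfotransferase whose substrates are not well defined, was higher in every exposed library, with exposed 2-2 far above the rest. It stood at 4.27, 2.37 and 7.86 CPM in controls and at 204, 18.7 and 26.3 CPM in exposed libraries. The log2 fold change of 4.10 ± 1.16 (edgeR adjusted p = 0.200; DESeq2 adjusted p = 1.11e-05) was 2.22 without exposed 2-2. DESeq2 called it in 6 of the 6 runs with a library left out (highest adjusted p = 0.00965).

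The SULT1 enzymes of zebrafish sulfate phenols, oestrogens and thyroid hormones. The neighbours sult1st7 and sult1st9 were both highest in exposed 2-2 and lowest of the exposed in exposed 3-3. sult1st7 stood at 0.336, 0.204 and 0.338 CPM in controls and at 12.8, 2.5 and 1.13 CPM in exposed libraries (log2 fold change 4.22 ± 1.02, edgeR adjusted p = 0.164; DESeq2 adjusted p = 0.000417). sult1st9 stood at 0.201, 0 and 0.0281 CPM against 7.49, 2.35 and 0.820 CPM (5.49 ± 1.59, edgeR adjusted p = 0.181; DESeq2 adjusted p = 0.00142). Without exposed 2-2 both DESeq2 calls were lost (adjusted p = 0.116 and 0.189), and sult1st7 was at 2.62. They lie in a run of 4 with sult1st1 and sult1st2, of which sult1st2 stood at -0.20.

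Of the remaining sulfotransferases, all named after their values were seen, 3 also had separated groups. sult1st1 stood at 8.37, 16 and 12.6 CPM against 25.6, 26.1 and 18.6 CPM (0.93 ± 0.32, edgeR adjusted p = 0.227). sult1st5 stood at 8.37, 8.03 and 7.15 CPM against 15.1, 12.5 and 10.1 CPM (0.68 ± 0.32). sult3st2 stood at 1.13, 0.0765 and 3.04 CPM against 7.89, 5.66 and 6.38 CPM (2.23 ± 1.04). The fold changes of the SULT1 genes ran from -0.20 for sult1st2 to 5.49 for sult1st9.

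**Figure D4:**
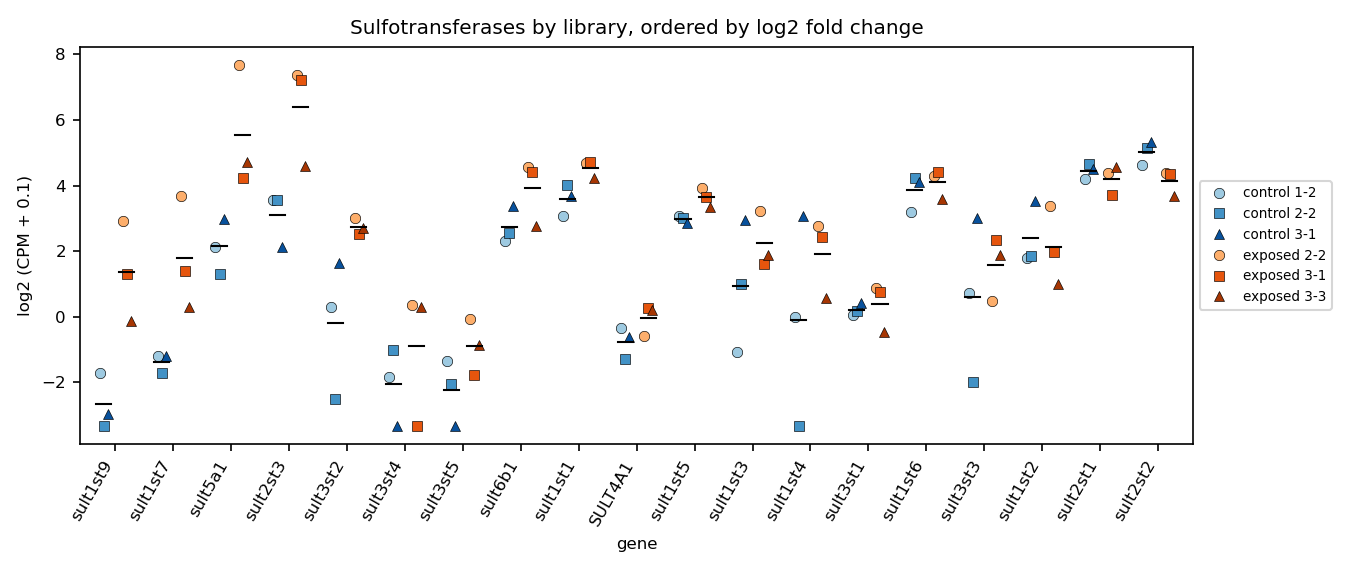
Levels of the 19 sulfotransferase genes (horizontal axis, ordered by fold change) as log2 of CPM plus 0.1, with 1 point per library, blue for controls and orange to brown for exposed, and a bar at each group mean. At the left, sult1st9, sult1st7, sult5a1 and sult2st3 have all exposed points above the controls with exposed 2-2 on top, and at the right end sult2st2 has its exposed points below.

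Markers of other tissues also differed between libraries beside these genes. The 17 epidermis markers lay above 0 in 17 of 17 cases. Their sum was between 1575 and 3870 CPM in controls and stood at 18407, 15264 and 2099 CPM in exposed 2-2, 3-1 and 3-3. Among the 11 genes called by DESeq2, 6 had their exposed values in the same order (ahr2, cyp2k17, sult1st7, sult1st9, sult2st3 and ugt2b5) and 5 did not (CYP1B1, cyp2aa7, sult5a1, ugt2a6 and ugt5g2). The order was that of 25 of the 100 genes and of 5211 of the 26108 tested genes. The 12 enterocyte markers, 11 of them above 0, summed to 12.6, 12.9 and 21.3 CPM in controls and to 65.9, 160 and 142 CPM in exposed libraries. Of the 15 kidney tubule markers, 13 lay above 0. The symbols SLC20A1, SLC4A4 and PAX2 each stand for more than 1 identifier there, as do SLC15A1 and LCT among the enterocyte markers. The kidney tubule list summed to 889 CPM in exposed 2-2 and to between 245 and 354 CPM in the other libraries. Exposed 2-2 is also where sult5a1 was highest, but it held the highest exposed value for 44 of the 100 genes and 36.4% of all tested genes. Of 15 identifiers listed for macrophages and neutrophils, many share the symbol MFAP4, with fold changes on both sides of 0, so separate markers are fewer. In all, 12 of the 15 lay above 0. Their sum was between 552 and 1604 CPM in controls and between 1633 and 3174 CPM in exposed libraries. The highest control sum, in control 3-1, held 813 CPM of 1 identifier of MFAP4 (ENSDARG00000090557), which was at 6.0 CPM or less elsewhere. Without it the controls lay between 549 and 897 CPM and the exposed libraries between 1629 and 3173 CPM. Most of that remainder was 1 gene, cd74a, at 759, 431 and 558 CPM in controls and 2733, 1579 and 1216 CPM in exposed libraries. Of these 4 lists, none had a marker at 0 in every library, and none of their genes belongs to the 100. The part of these transcripts in the differences was not tested.

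**Figure D5:**
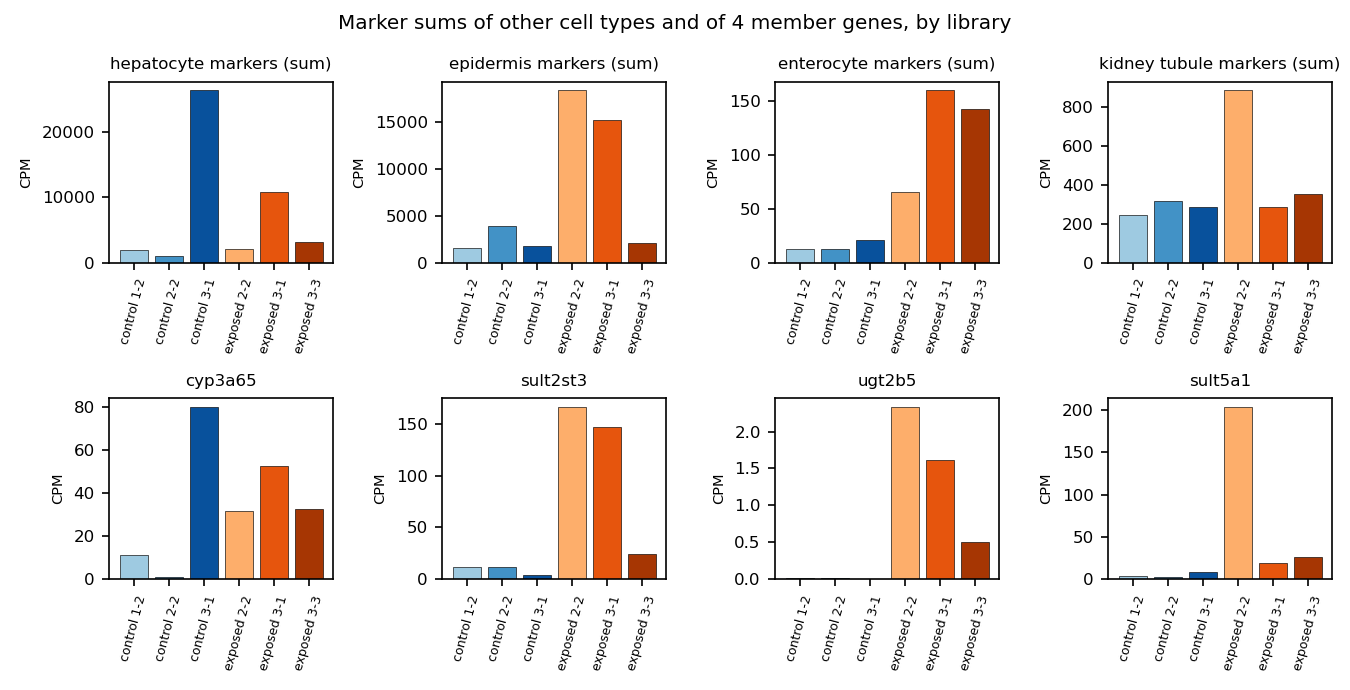
Summed CPM of 4 marker lists (upper row: hepatocytes, epidermis, enterocytes and kidney tubules) and CPM of cyp3a65, sult2st3, ugt2b5 and sult5a1 (lower row) in each of the 6 libraries, as bars from 0 with a separate axis for each panel. Hepatocyte markers and cyp3a65 are both highest in control 3-1, epidermis markers and sult2st3 are both highest in exposed 2-2 and lowest of the exposed in exposed 3-3, and kidney markers and sult5a1 are both highest in exposed 2-2. Of all tested genes, 35.8% had their highest control value in control 3-1 and 36.4% their highest exposed value in exposed 2-2. The 4 genes were picked from the 100 and do not stand for them. In controls, 35 of the 100 genes had the library order of the hepatocyte sum, against 16.5% of all tested genes. In exposed libraries 15 of the 100 had that sum's order, against 14.5%. cyp3a65 was 1 of 6 with the order in both groups (2.93% of all tested genes). These shares were not tested.

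Genes that work with these enzymes were listed by role, with 0 genes past edgeR's adjusted threshold in any list. Of 7 AHR partners and other AHR-responsive genes, 1 was higher at an unadjusted edgeR p under 0.05 and 0 were lower. Over all tested genes the shares were 9.68% and 6.79%. Counts in lists this short are not read as a response of the partner genes. ARNT2, a protein that pairs with AHR to bind DNA, stood at 18.8, 20.4 and 19.3 CPM in controls and at 35.1, 32.4 and 27.1 CPM in exposed libraries. Its groups did not overlap, with a log2 fold change of 0.69 ± 0.22 (edgeR adjusted p = 0.204). NQO1, a quinone reductase, stood at 21.1, 9.43 and 19.7 CPM against 74.9, 28.3 and 17.7 CPM, with exposed 3-3 among the controls (1.26 ± 0.57).

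Of 10 other sensors of foreign compounds and oxidants, 2 were higher at that level (9.68% of all tested genes) and 0 lower (6.79%). DESeq2 called 1 as higher, against 5.35% of all genes it tested. That gene was NR1I2, the pregnane X receptor, which senses steroids and drugs and switches on CYP3A genes. It stood at 4.34, 4.40 and 3.83 CPM in controls and at 30.2, 17.3 and 5.40 CPM in exposed libraries. The controls were tight and the exposed libraries ranged widely (2.07 ± 0.58, edgeR adjusted p = 0.176; DESeq2 adjusted p = 0.0122). NFE2L2, a transcription factor of the oxidant response, stood at 72.6, 82.9 and 110 CPM against 280, 167 and 108 CPM (1.06 ± 0.36), so exposed 3-3 was level with control 3-1.

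Electron donors and cofactor suppliers were split around 0, with 9 of 18 above it, 2 higher at an unadjusted p under 0.05 and 0 lower. By that rule 9.68% of all tested genes were higher and 6.79% lower. POR, the reductase that feeds electrons to microsomal P450s, is a symbol shared by 2 identifiers. ENSDARG00000059035 stood at 68.1, 124, 176, 115, 107 and 68.9 CPM (-0.34 ± 0.36), and ENSDARG00000055092 stood at 35.5, 41.8, 29.8, 36.9, 33.9 and 30.9 CPM (-0.08 ± 0.22), with overlapping groups in both. UGP2 (ENSDARG00000008200), which makes the UDP-glucose that becomes the UGT cofactor, stood at 36.3, 41.9 and 29.5 CPM against 60.1, 64.1 and 46.2 CPM (0.66 ± 0.24). A further identifier with that symbol, ENSDARG00000005578, had overlapping groups at 8.52, 3.16, 24.5, 4.64, 28.3 and 5.86 CPM (0.10 ± 0.94). CYB5R3, which supplies electrons through cytochrome b5, stood at 33.1, 35 and 49.3 CPM against 58.6, 63.2 and 49.8 CPM (0.55 ± 0.24). The exposed values of CYB5R3 and of UGP2 ENSDARG00000008200 lay above all their control values, by little for CYB5R3.

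Of 24 other conjugating and hydrolysing enzymes, 3 were higher at an unadjusted p under 0.05 and 0 were lower. The shares of all tested genes were again 9.68% and 6.79%. STS, the steroid sulfatase that removes the group sulfotransferases add, stood at 6.63, 7.51 and 6.06 CPM against 21.0, 15.6 and 10 CPM (1.21 ± 0.37, edgeR adjusted p = 0.190). gsto2, a glutathione transferase, stood at 12.2, 11.9 and 8.21 CPM against 43.9, 17.8 and 18.7 CPM (1.31 ± 0.41). Neither gene's groups overlapped.

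Of 21 transporters of foreign compounds, 1 was higher and 3 were lower at that level, against 9.68% and 6.79% of all tested genes. ABCC4, which exports conjugates from cells, was lower in every exposed library at 96.8, 118 and 109 CPM against 78.5, 69.8 and 64.2 CPM (-0.61 ± 0.20, edgeR adjusted p = 0.210). SLCO1C1, a carrier of thyroid hormones and organic anions, stood at 15.5, 23.7 and 15.8 CPM against 9.0, 9.91 and 12.1 CPM (-0.83 ± 0.31). Both transporters were named for the smallest p in the list, and their groups did not overlap. Of the 21, 14 lay above 0, and the median log2 fold change of the list was 0.20.

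Most runs of neighbouring genes held both directions. Long runs hold both readily, and no expected share was computed, so this is a description only. In the order of genes of the RefSeq table (assembly GRCz12tu), 63 of the 100 genes lay in 15 runs of at least 2 neighbours. Of the 15 runs, 10 held genes on both sides of 0, 4 held only genes above 0, and the pair sult2st1 and sult2st2 lay below 0. The 11 neighbours from cyp2n13 to cyp2j20 ran from -1.06 to 0.74, and the 5 from ugt1b7 to ugt1b1 ran from -0.85 to 0.59. Many such neighbours are close in sequence, and the sources used here do not say how reads that match several of them were counted, so levels of single tandem genes are uncertain.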

How the data were processed

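The authors deposited a table of unnormalised counts for 32520 Ensembl genes in 6 libraries. Alignment was with STAR to GRCz11, per the submitters' processing notes. The sources used here do not name the STAR version, the counting tool, the annotation or the use of strand. Of counts from 10 to 99, 66.8% to 75.1% were even (50% by chance), and the labels do not say if read mates were counted singly. If so, counting error is understated. Intervals and floors cover counting error only. Columns were matched to samples by the labels' descriptions, with 0 columns left out. A reference table named 29201 genes, with symbols printed as it gives them.

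Genes were filtered with filterByExpr, TMM-scaled and tested in edgeR 4.0.16 (robust glmQLFit, glmQLFTest, two-sided, group as the only term), with Benjamini-Hochberg adjustment at 0.05 over 26108 genes. As edgeR gives no SE, it was taken as the size of the log2 fold change over the square root of F. With 3 against 3, an exact permutation test cannot go below p = 0.1, so none was run. Alternatives were DESeq2 1.42.0 (an NA adjusted p stayed NA, as for cyp2k16 and CYP4V2 ENSDARG00000062132), limma 3.58.1 voom, other scalings, filters and fits, halved counts, the replicate number as a block, and each library left out. DESeq2 with libraries left out, the shares of all genes called or separated with a library left out, and a macrophage sum without 1 MFAP4 identifier were added after seeing the data. Comparing control 3-1 with the other controls, and library order with marker sums, was not planned beforehand either. R 4.3.3 and Python 3.11.15 were used, and the fits were tested on simulated data.

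The 100 genes, the partner and marker lists, the tests and the named genes were chosen with earlier results of these data known. Named were all AHR and CYP1 genes, in CYP2, CYP3, CYP4, UGT and SULT the 3 genes with the highest mean CPM and the 3 with the smallest edgeR p (35 genes in all), the 2 with the smallest p in each partner list, and POR. Other genes named are said to be outside this rule or stand in a count of few. Lists held 191 symbols, of which 19 were absent, and 18 genes took a name that paralogs share. Deviations of same-numbered libraries from their group means correlated at -0.0063, 0.0194 and -0.0344. Deviations within a group cancel, so the correlations of any control with the exposed libraries nearly cancel too. These values therefore cannot decide whether libraries with the same replicate number belong together. Sequences, gene lengths and coordinates were not used here.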

Additional observations from a re-analysis of the deposited data

How the results depend on the processing

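Across 17 alternatives, edgeR and limma fits called 0 of the 100 genes, except that leaving out each library in turn gave 0 to 1, and DESeq2 called 11 (6.68% of all tested genes in either direction). The 1 call, sult2st3, came without exposed 3-3, where edgeR called 396 genes in all (1.49%). With a library left out, DESeq2 called 4 (without exposed 2-2, 3.76% of all genes) to 19 (without control 3-1, 8.42%). Without exposed 3-3 it called 13, against 13.4% of all genes. The 13 genes higher at an unadjusted p under 0.05 became 8 with a replicate block (7.62% of all genes) and 9 to 25 with a library left out. Over those runs the share of all genes was 6.32% to 11.2%, and the 25, without control 3-1, stood beside 9.23%. The 2 lower ones became 1 with a replicate block (3.35%), 1 by limma voom (7.19%) and 0 to 2 with a library left out. Over those runs the share of all genes was 3.70% to 8.87%, and the 0, without control 3-1, stood beside 6.62%. The separated genes, 18 higher and 3 lower, became 21 to 43 and 4 to 6 with a library left out. Over those runs 16.9% to 21.4% of all genes separated higher and 13.8% to 19.1% lower. The 43, without control 3-1, stood beside 19.5%. The 6 stood beside 15.2% without control 1-2 and 18.4% without control 3-1. The median log2 fold change of 0.54 ranged from 0.28 to 1.15. Direction turned for 10 named genes. By limma voom cyp1c2 was at -0.032, cyp3c1 at 0.24 and cyp4t8 at 0.027. With a replicate block cyp1c2 was at -0.33 and ugt2a4 at -0.042. With a library left out the ranges were -0.57 to 2.03 for CYP4V2 ENSDARG00000061585, -0.77 to 2.61 for CYP4V2 ENSDARG00000062132, -0.72 to 0.67 for cyp1c2, -0.058 to 1.13 for cyp1d1, -0.44 to 0.11 for cyp2p10, -0.045 to 0.38 for cyp2v1, -0.24 to 2.66 for cyp3a65, -0.70 to 1.2 for cyp3c1, -0.59 to 0.63 for cyp4t8 and -0.063 to 1.11 for ugt2a4. The causes were not tested. No named gene turned under the other scalings, which moved the median of all genes from 0.04 to between 0.01 and 0.06. At these depths a gene at 0 counts may still stand below 0.0422 CPM.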

Other observations

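Of the 100 genes, 13 reached the count minimum in only 3 or 4 libraries, and several of these had counts in some fish and none in others of the same group. cyp2x8 had 0 counts in exposed 2-2 and 362 and 375 counts in exposed 3-1 and 3-3, beside 20, 15 and 0 in controls. sult3st4 had 120, 0 and 130 counts in exposed libraries and 16, 31 and 0 in controls. ugt1b7 had 92 counts in exposed 3-3 and 0 in the other exposed libraries, with 30, 16 and 0 in controls. cyp2k6 had 54 counts in control 2-2 and 0 in the other controls, with 56, 0 and 206 in exposed libraries. These genes were chosen after their values were seen.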
